A study of Mus musculus with 36 samples.

Results

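The genes described here are 39 chromatin remodelers and modifiers, taken by gene name from a count table of 16614 genes. The set holds 9 CHD family remodelers, 8 subunits of the BAF (SWI/SNF) complex, 7 other remodeler ATPases and scaffolds, 7 methyltransferases and relatives of the MLL and SET1 family, 4 other SET domain proteins, and a group of 4 made of the acetyltransferases Ep300 and Crebbp, the corepressor Ncor1 and the DNA demethylase Tet3. Measured were ribosome-protected fragments (RPFs, the stretches of mRNA that a ribosome shields from nuclease) and whole-brain RNA-seq from mice at postnatal day 5. The animals were wild type (WT) C57BL/6 mice and FMR1 KO mice, labelled FMR1 -/y, which lack the RNA-binding protein FMRP in every cell. Mice of both sexes were used, and each library came from a pool of 10 brains. RPFs were made from the pellet of a sucrose gradient (labelled granule), where compacted ribosome clusters sediment that are thought to include those of neuronal RNA granules, and from fraction 5/6 (labelled polysome), where lighter ribosome clusters sediment. The standard preparation was digested with 10 mM MgCl2 at room temperature, and the low nuclease preparation with 2.5 mM MgCl2 at 4 °C. There were 3 libraries for each of 12 combinations of genotype, material and preparation, 36 in all. The study treats the replicates of a group as biological, but the RPFs of a group were combined under separate linkers before reverse transcription, so p-values measure the spread between pools that share those later steps.

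Chromatin remodelers use ATP to slide, evict or exchange nucleosomes, and they work in large complexes in which a catalytic ATPase is joined by subunits that read histone marks or hold the complex together. SET domain methyltransferases write methyl marks on histone H3, with the MLL and SET1 family acting on lysine 4, and Ep300 and Crebbp acetylate histones. Many of these genes are broadly expressed, are coded by very long mRNAs, and are known from inherited forms of intellectual disability and autism. FMRP binds many long brain mRNAs, and the study asked whether its loss changes the ribosomes that are held in granules. Of the 39 genes, 20 stand on a published list of brain mRNAs bound by FMRP (of Darnell and colleagues), 12 on a second such list (of Maurin and colleagues), and 15 on neither.

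Several properties of the libraries bear on these genes. Standard RPF libraries held 6765065 to 40174168 counts, of which the single gene Cdk8 took 36.7% to 63.4%, so that 4284209 to 21274803 counts remained. Levels are therefore given as CPM, counts scaled to the library total without Cdk8. Low nuclease RPF libraries held 23634940 to 62310787 counts and standard RNA-seq libraries 112249206 to 147216378. Every member had at least 48 counts in each standard RPF library and all 39 passed the filter on low counts in every comparison. Fmr1, the deleted gene, stood at 64.6 to 67.8 CPM in the WT pellets and at 4.79 to 4.93 CPM in the FMR1 KO pellets. The library labelled WT fraction 5/6 replicate 3 went against its label, with 3.17 CPM of Fmr1 where the others of its group had 68.6 and 100. Its levels correlated at r = 0.916 to 0.922 over genes with its own group, at 0.930 to 0.942 with FMR1 KO fraction 5/6, at 0.956 to 0.963 with the WT pellets and at 0.922 to 0.969 with the FMR1 KO pellets, 1 of which gave the highest value. The main counts, levels and peak shares that rest on this doubted library are given with and without it. The FMR1 KO RNA-seq libraries of the standard preparation held 14 to 26 counts of 4 Y-linked genes, against 11471 to 11844 in WT, while the FMR1 KO pellets held 773 to 1225. These RNA libraries thus carry almost no Y-linked reads, although their label names a Y chromosome, and the sex make-up of each pool is not given in the sources used here, so that in RNA-seq and occupancy the genotype and the Y-linked content of the pools cannot be told apart. The low nuclease RNA-seq was not compared, since 3 of its 6 libraries had 82.4% to 85.0% of their counts in 10 genes. Summed levels of 6 neuron markers were 5324 to 11313 CPM across standard RPF libraries and 6385 to 7501 CPM in the RNA-seq. Blood markers reached 419 CPM in RNA-seq and no more than 9.80 CPM in standard RPFs. In such bulk material, fewer cells of a type and less RNA per cell cannot be told apart.

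The members were well expressed in all materials. The median over the 39 genes of their mean level was 161 CPM in WT and 172 CPM in FMR1 KO RNA-seq, and 117 CPM in the WT pellet and 115 CPM in the FMR1 KO pellet. This order depends on scaling: over TMM effective library sizes, which the tests of occupancy use, the pellets stood at 208.4 and 204.8 CPM and RNA-seq at 129.7 and 143.2 CPM. In fraction 5/6 it was lower, with 51.0 CPM in FMR1 KO and 66.7 CPM in WT. The WT value rested on the library labelled WT fraction 5/6 replicate 3, since the library medians were 43.3, 27.8 and 136 CPM, and without it the group's value was 38.55 CPM. Relative to the other libraries of its group, that last library was the highest for 35 of the 39 genes, at a median ratio of 2.51. The FMR1 KO pellet replicate 2 was the lowest of its group for 38 of 39, at a median ratio of 0.55. In the low nuclease preparation the medians were 156 and 145 CPM in the WT and FMR1 KO pellets, against 92.7 and 86.2 CPM in fraction 5/6.

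**Figure D1:**
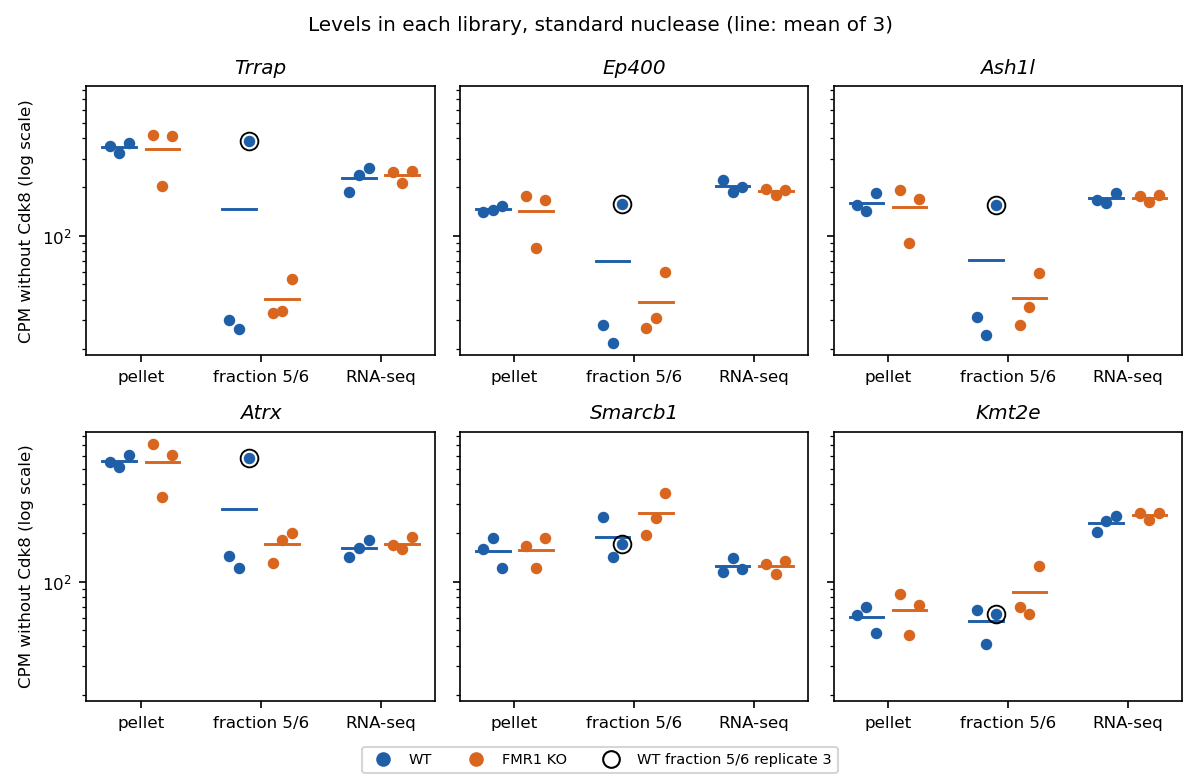
Level of 6 members in every standard library, as CPM of the library total without Cdk8 on a log axis, with 1 point per library, a line at the mean of 3, and the library labelled WT fraction 5/6 replicate 3 circled. Trrap, Ep400, Ash1l and Atrx sit lower in fraction 5/6 than in the pellet except in the circled library, while the points of Kmt2e overlap between the fractions.

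Per kilobase of coding sequence, pellet levels differed widely between paralogs and subunits. Smarcb1, the small core subunit of BAF, had 134 ± 28 CPM per kb in the WT pellet (SD, n = 3), and Atrx, an ATPase that places histone variant H3.3, had 75.3 ± 6.5. Smarca4 stood at 79.1 ± 0.66 against 43.5 ± 3.3 for Smarca2, the alternative ATPase of BAF, and their 3 libraries did not overlap. Crebbp stood at 23.8 ± 1.1 against 12.3 ± 0.84 for its paralog Ep300, again without overlap. Chd3 and Chd4, alternative ATPases of the NuRD complex, stood in opposite order in the materials. Chd4 had 57.8 ± 3.4 CPM per kb in the WT pellet and Chd3 35.2 ± 0.65, whereas per kilobase of exon in WT RNA-seq Chd3 had 109 ± 12 and Chd4 34.3 ± 7.7. The lowest WT pellet levels per kb were those of Ino80, the ATPase of the INO80 complex, at 2.41, Chd1 at 4.28 and Chd7 at 4.46. Within the MLL family, Kmt2a at 5.81 ± 1.0 and Kmt2b at 5.69 ± 0.37 did not differ beyond their spread, nor did Kmt2c at 7.39 ± 0.77 and Kmt2d at 7.71 ± 0.26. Reads that paralogs share were not separated here.

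Ribosome footprint peaks, called by the authors in each standard RPF library, show where on these mRNAs RPFs piled up. Of 278002 peaks in the 12 libraries, 2516 lay on 33 of the 39 members, and none on Chd9, Kmt2a, Setd5, Srcap, Ncor1 or Ino80. Nearly all, 98.6%, lay in coding sequence, with 25 in 5′ untranslated regions and 10 in 3′ untranslated regions. Kmt2e, an MLL relative without known methyltransferase activity, held 17 of those 25, and only 1 of its 18 peaks lay in coding sequence. The members took 0.922% to 1.39% of the peaks in each of the 6 pellet libraries. In fraction 5/6 their share was 0.149% to 0.505% in 5 libraries and 1.20% in the library labelled WT fraction 5/6 replicate 3, within the range of the pellets. The highest numbers of peaks were 285 on Nsd1, 210 on Smarca4, 208 on Chd4, 188 on Atrx, 174 on Chd3 and 163 on Chd5. Without the library labelled WT fraction 5/6 replicate 3, 2236 member peaks remained, and these genes held 253, 172, 169, 164, 159 and 144. Trrap had 27 of its 28 peaks in pellets, and the other one in the library labelled WT fraction 5/6 replicate 3.

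Peaks differed in where they lay along the coding sequence. In Atrx, 60.6% of peaks fell in the last of 3 equal parts of the coding sequence and 13.8% in the first. In Ep300 the shares were 52.0% and 9.0%. Chd3, Chd4 and Chd5 were the other way round, with 55.3% of Chd4 peaks, 59.8% of Chd3 peaks and 51.5% of Chd5 peaks in the first part, and 10.6%, 12.6% and 13.5% in the last. Chd6 had no peak in the first part and 50.0% in the last, whereas Chd8 had none in the last. Across all members 34.5% of peaks fell in the first part and 31.4% in the last. Without the doubted library the last part held 60.4% of Atrx and 52.2% of Ep300 peaks, the first part 58.0% of Chd4, 59.1% of Chd3 and 52.8% of Chd5 peaks, and over all members the shares were 34.4% and 31.5%.

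**Figure D2:**
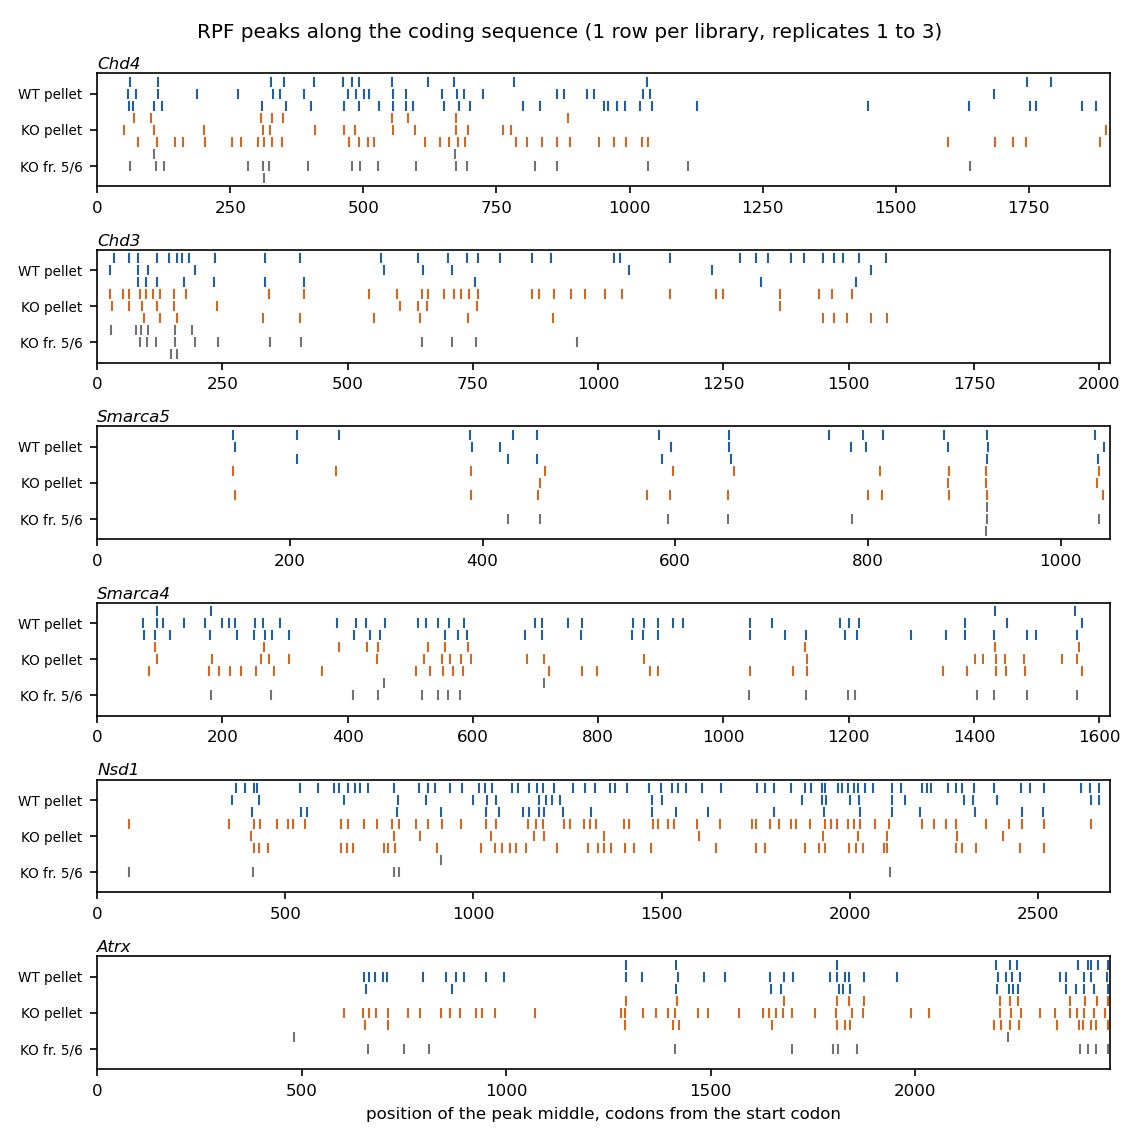
Position of each footprint peak along the coding sequence, in codons from the start codon, for Chd4, Chd3, Smarca5, Smarca4, Nsd1 and Atrx, with 1 row of ticks per library of the WT pellet (blue), FMR1 KO pellet (orange) and FMR1 KO fraction 5/6 (grey). Peaks of Chd3 and Chd4 gather toward the start and those of Atrx toward the end.

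Recurrence of member peaks depended on how they were matched. Peaks whose middles lay within 6 nt of a neighbour were chained into a site, which then spanned up to 22.5 nt. The 2516 peaks made 1696 sites, of which 73.1% were seen in 1 library, against 61.2% over all transcripts. Without the library labelled WT fraction 5/6 replicate 3 there were 1564 sites, with shares of 75.3% and 62.5%. Of 882 member sites found in any WT pellet, 14 (1.59%) were found in all 3, against 5.71% over all transcripts. This count was 4 with neighbours within 3 nt, 38 within 12 nt, 3 among the taller peaks of each library, and again 14 without the doubted library. Of the 14, 8 (57.1%) also had a peak in an FMR1 KO pellet, against 89.7% over all transcripts. Within 12 nt 37 of 38 did, but there the chained sites spanned up to 71.5 nt. The share over all transcripts was not computed at 12 nt. Of the 14 sites found in all 3 FMR1 KO pellets, 13 (92.9%) had one in a WT pellet, against 92.5% over all transcripts. Member peaks had a median height of 13 on the deposited coverage scale, where that of all peaks was 15, and 30 of them are listed at height 0. The part of depth in how many sites recur was not tested. At 6 nt a single site was shared by all 6 pellets, and it lay in Smarca5, the ATPase of ISWI remodelers. Within 12 nt, with these wider sites, 17 were.

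The sequences at the recurrent sites are given to show which codons lay under the peaks. They come from the members with the most sites in all 3 WT pellets, with ties taken by number of peaks, and the tallest site within 1 exon was taken for each. Chd4 had 2 such sites of equal height (52), and the one nearer the start codon is shown. It was seen in 0 FMR1 KO pellets, and the other, at codons 551 to 560, in 2. Chd3 is left out, since its only site in all 3 WT pellets (height 97) crosses exons. Each is the 10 codons around a site found in all 3 WT pellets, read 5′ to 3′ from the GRCm38 genome with GENCODE M21 coding sequences, with codons for aspartate or glutamate in capitals. The Smarca5 codons 920 to 929 carry the site of all 6 pellets, were added for that reason, and cross an exon junction, so that their coordinates chr8:80704800-80705230 on the minus strand include an intron. The others lie within 1 exon each: Smarca5 codons 652 to 661 in exon 15 (chr8:80711723-80711752, minus strand), Smarca4 codons 91 to 100 in exon 3 (chr9:21634798-21634827, plus strand), Chd4 codons 58 to 67 in exon 3 (chr6:125100539-125100568, plus strand), Nsd1 codons 2107 to 2116 in exon 22 (chr13:55310394-55310423, plus strand) and Atrx codons 2467 to 2476 in exon 35 (chrX:105800178-105800207, minus strand), which are its last codons.
Smarca5 920-929: ctaGATacaaagattggacggtacaaagca
Smarca5 652-661: atgattcgacatggtgctacacatgtgttt
Smarca4 91-100: aaccagatgaaagggatgggcatgcggtca
Chd4 58-67: aagaaacctcgaGACcctaaaatccctaag
Nsd1 2107-2116: aagcgcaggagccagggcGAAgtcaccaag
Atrx 2467-2476: aatccaggaccttccccagggaaatcaatg

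The tallest of these was the Atrx site, whose heights sum to 110 on the coverage scale over the 3 WT pellets, and it was also seen in 2 FMR1 KO pellets. The Smarca4 site was seen in 2 FMR1 KO pellets, the Smarca5 site at codons 652 to 661 in 1, and the Nsd1 site in 0. Acidic codons made up 13 of the 140 codons (9.29%) in the windows of all 14 sites, against 12.95% of the whole coding sequences of the same 12 genes. The windows shown hold 3 of the 13, and that of Chd5 alone, which is not shown, holds 4. The windows are few, and this share was not tested.

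Occupancy compared pellet RPFs with whole-brain RNA-seq and asked which mRNAs hold more ribosomes in the pellet than their abundance would give. In WT, 25 of the 39 members were higher and 6 lower (quasi-likelihood test of edgeR, p-values adjusted by Benjamini-Hochberg over 16166 genes, where 31.1% of genes tested were higher and 34.3% lower). The median log2 occupancy of the members was 0.70 and that of all genes tested -0.11. In FMR1 KO, 23 were higher and 6 lower (31.9% and 35.2% of genes tested), with a median of 0.50. These counts depend on scaling: with library size in place of TMM factors the median of all genes moved by -1.15 in WT and -1.10 in FMR1 KO, and the members had 4 higher and 23 lower in WT, with 19 genes changing sign, and 1 higher and 17 lower in FMR1 KO, with a median of -0.58. The members' median stood above that of all genes by 0.81 with TMM and 0.79 with library size in WT, while for FMR1 KO the gaps were 0.57 and 0.60. Both member medians lay below those of all genes with a coding sequence over 5 kb, which had a median log2 occupancy of 0.74 in WT and 0.83 in FMR1 KO.

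All 8 BAF subunits were higher in WT, with a median log2 occupancy of 1.11 and a range from 0.44 for Arid2 to 1.46 for Smarcb1, but with library size none was higher and 3 were lower, with a median of -0.04. Of the CHD remodelers 6 of 9 were higher and 1, Chd3, was lower at -0.70 ± 0.15 (log2 ± SE, adjusted p = 0.0037), while Chd4 rose to 1.74 ± 0.19 (adjusted p = 0.00014). Of the MLL and SET1 family 2 of 7 were higher and 1 lower. With library size 0 of this family were higher and 6 lower, and of the CHD remodelers 2 were higher and 5 lower. The highest log2 occupancy of any member was that of Atrx, at 2.96 ± 0.18 (adjusted p = 1.1e-05), a difference of 7.79-fold with TMM factors and of 3.46-fold with library size (log2 1.79 ± 0.16, adjusted p = 2.1e-05). Atrx stood at 553, 514 and 610 CPM in the WT pellets and at 141, 161 and 182 CPM in WT RNA-seq, so all pellets lay above all RNA libraries, as for 9.66% of genes tested. In FMR1 KO its log2 occupancy was 2.76 ± 0.19.

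Trrap, the scaffold of histone acetyltransferase complexes, had a log2 occupancy of 1.79 ± 0.18 in WT (adjusted p = 8.4e-05), with 359, 326 and 376 CPM in the pellets against 187, 237 and 263 in RNA-seq. With library size its log2 occupancy was 0.63 ± 0.17 (adjusted p = 0.0084). Chd5, a remodeler of neurons, had 2.44 ± 0.87 (adjusted p = 0.04), but this came from 1 library: its pellet levels were 241, 237 and 1979 CPM, against 299, 435 and 325 in RNA-seq. Without WT pellet replicate 3 its log2 occupancy was 0.54, close to the 0.50 ± 0.11 of FMR1 KO, and with library size it was 1.21 ± 0.76 (adjusted p = 0.18).

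The lowest log2 occupancies were those of Tet3 (-0.88 ± 0.11, adjusted p = 0.00036), which oxidises methylated cytosine, Kmt2e (-0.80 ± 0.13, adjusted p = 0.0013) and Srcap (-0.75 ± 0.11, adjusted p = 0.00069), the ATPase that deposits H2A.Z. Tet3 stood at 61.1, 60.6 and 63.8 CPM in the WT pellets and 246, 254 and 263 in RNA-seq. Kmt2e stood at 62.0, 69.8 and 48.3 CPM against 202, 238 and 255, and Srcap at 84.3, 94.9 and 75.5 against 284, 324 and 344. For these 3 genes every pellet lay below every RNA library, but in CPM so did 70.3% of genes tested. With library size their log2 occupancies were -2.04, -1.95 and -1.90. With TMM, the same 6 genes, Chd3, Ino80, Srcap, Kmt2e, Setd5 and Tet3, were lower in both genotypes, and 22 genes were higher in both. Of all genes tested in both, 29.9% were lower and 27.7% higher in both, and of those with a coding sequence over 5 kb 8.91% and 50.4%. With library size 16 members were lower in both genotypes and only Atrx was higher in both. The comparisons of the genotypes share no library. With TMM, members on the Darnell list had a median log2 occupancy of 0.94 in WT, with 17 of 20 higher. Those not on it had 0.26, with 8 of 19 higher. The Maurin list stood the other way round, with 0.47 and 6 of 12 higher on it, and 0.70 and 19 of 27 higher off it. With library size only 4 of all 39 members were higher in WT. The differences between these subsets were not tested.

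In fraction 5/6, measured against the same RNA-seq, the members stood lower. In FMR1 KO 7 were higher and 21 lower (29.8% and 33.2% of genes tested), with a median log2 occupancy of -0.49 against -0.11 over all genes. In WT 5 were higher and 6 lower (24.7% and 31.3% of genes tested) with a median of 0.01, and without the doubted library 6 were higher and 19 lower (27.9% and 32.1%) with a median of -0.62. In FMR1 KO 7 genes were higher in the pellet and lower in fraction 5/6, namely Chd6, Bptf, Ep400, Trrap, Kmt2b, Kmt2c and Ash1l, a pattern of 1.15% of all genes and of 17.4% of genes with a coding sequence over 5 kb. In WT no member had it, and without the doubted library 7 had, namely Chd6, Arid2, Bptf, Ep400, Trrap, Setd2 and Ash1l (1.06% of all and 15.7% of long genes). Another 7 were higher in both materials in FMR1 KO, namely Chd1, Chd4, Smarca4, Smarcc1, Smarcc2, Smarcb1 and Atrx, as were 24.1% of all genes and 15.8% of long ones. In WT 5 were higher in both, namely Chd4, Smarcc1, Smarcc2, Smarcb1 and Atrx (22.1% and 12.1%), and without the doubted library also Setd1a (23.0% and 13.0%). Trrap went from a log2 occupancy of 1.62 ± 0.17 in the FMR1 KO pellet to -1.66 ± 0.11 in fraction 5/6. In WT it went from 1.79 ± 0.18 to 0.37 ± 0.94, and to -1.72 ± 0.20 without the doubted library. Smarcb1 went from 1.44 ± 0.10 to 1.97 ± 0.12 in FMR1 KO, and in WT from 1.46 ± 0.15 to 1.69 ± 0.20, or 1.89 ± 0.17 without that library. Both values of a gene share the RNA-seq libraries. With library size in place of TMM no member was higher in the pellet and lower in fraction 5/6, or higher in both, in either genotype, and in fraction 5/6 itself 1 member was higher and 30 lower in FMR1 KO and 0 higher and 20 lower in WT.

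**Figure D3:**
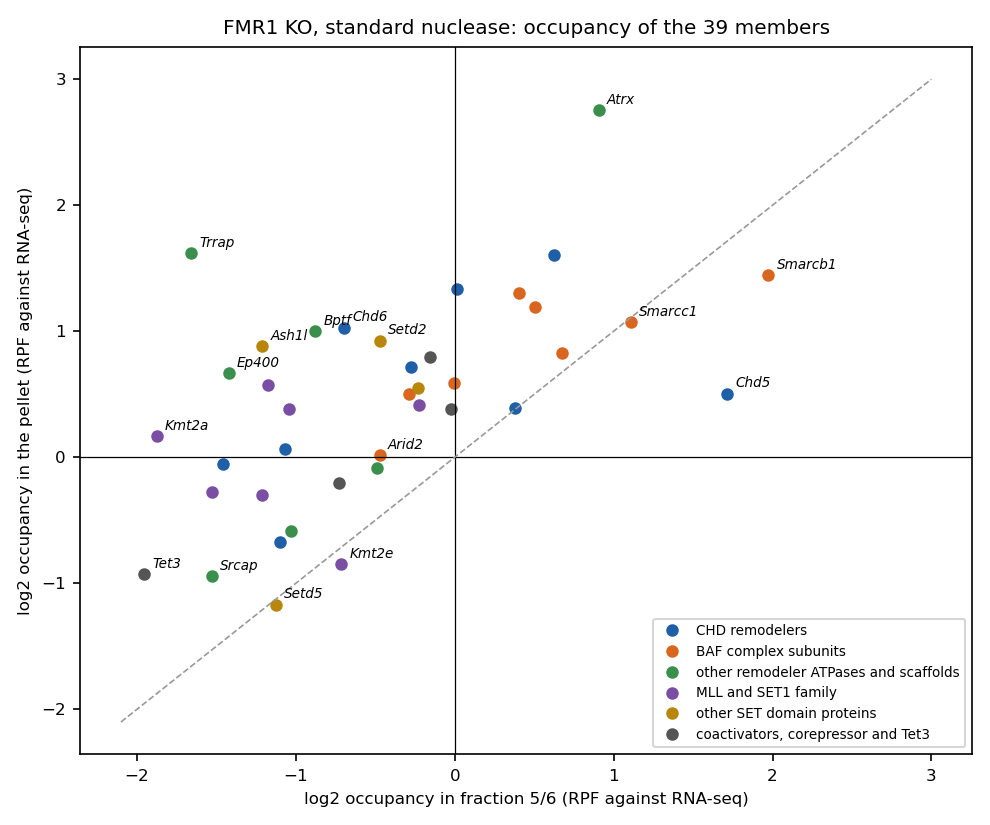
Log2 occupancy of each member in FMR1 KO, in the pellet (vertical axis) against fraction 5/6 (horizontal axis), both relative to the same RNA-seq libraries, with members marked by role. Trrap lies at 1.62 in the pellet and -1.66 in fraction 5/6, Atrx is positive in both, and Tet3 and Kmt2e are negative in both.

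Enrichment compared the pellet with fraction 5/6 directly. In FMR1 KO, 26 of the 39 members were higher in the pellet and none lower (quasi-likelihood test of edgeR, Benjamini-Hochberg over 13248 genes, 9.09% higher and 2.35% lower), with a median log2 enrichment of 1.00 against -0.04 over all genes tested. With library size in place of TMM 5 members were higher, and the median of all genes moved by -0.30. The members' median stood above that of all genes by 1.04 with TMM and 1.02 with library size. With TMM, the count was 16 without FMR1 KO pellet replicate 1 or 3 or fraction 5/6 replicate 1. In the low nuclease preparation 23 were higher and 1 lower in WT (14.3% and 8.56% of genes tested), with a median of 0.75, and 21 higher and 1 lower in FMR1 KO (8.79% and 11.7%), with a median of 0.77. The first of these counts fell to 15 without WT pellet replicate 1, and the second to 8 or 9 without any one library of FMR1 KO fraction 5/6. In standard WT no member passed the test (0.0153% of genes tested were higher and 0.00765% lower), 2 members had an unadjusted p under 0.05, DESeq2 called none either, and the median was 0.58. Without the library labelled WT fraction 5/6 replicate 3, 27 were higher and none lower (7.76% and 1.86% of genes tested), with a median of 1.06.

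**Figure D4:**
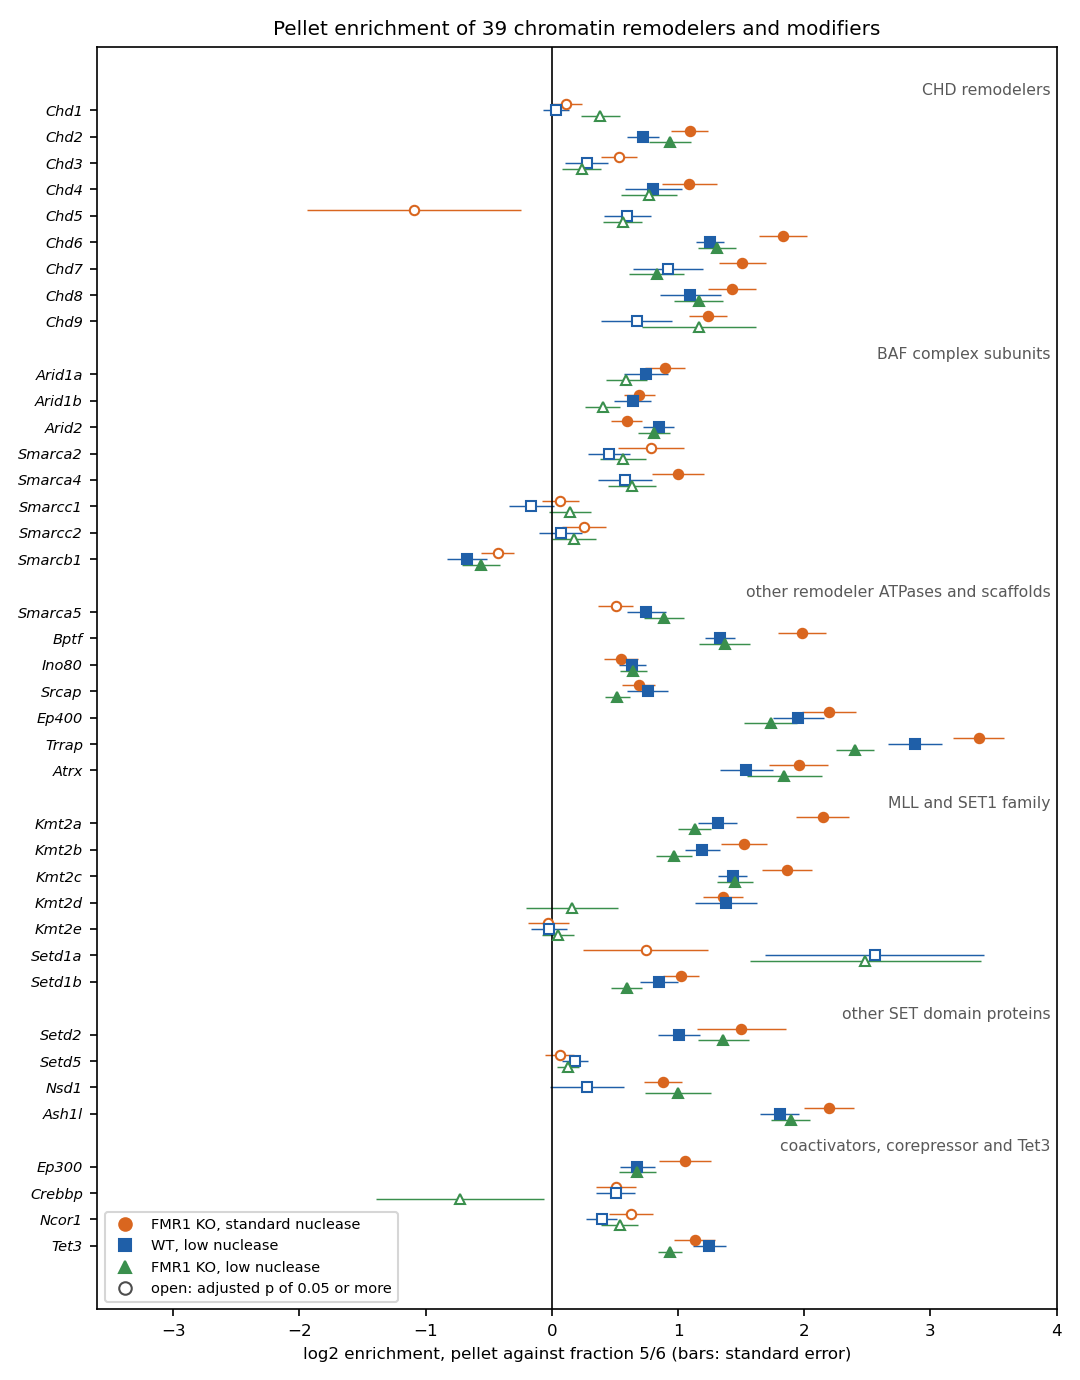
Log2 enrichment (pellet over fraction 5/6) with its standard error for each of the 39 members, in the FMR1 KO standard preparation and in both genotypes of the low nuclease preparation. Trrap is highest in standard FMR1 KO at 3.38 and in low nuclease WT at 2.88, and Smarcb1 lies below 0 in each comparison.

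Of the other remodeler ATPases and scaffolds 6 of 7 rose in standard FMR1 KO with a median of 1.96, and 7 of 7 in each genotype of the low nuclease preparation. Of the MLL and SET1 family 5 of 7 rose in FMR1 KO with a median of 1.36, of the CHD remodelers 6 of 9 with 1.09, of the other SET domain proteins 3 of 4 with 1.19, of the BAF subunits 4 of 8 with 0.64, and of the last group 2 of 4 with 0.84. Differences between these groups were not tested. In all 3 comparisons 18 genes were higher: Chd2, Chd6, Chd8, Arid2, Bptf, Ino80, Srcap, Ep400, Trrap, Atrx, Kmt2a, Kmt2b, Kmt2c, Setd1b, Setd2, Ash1l, Ep300 and Tet3. Of all genes tested 5.28% were higher in all 3, and of those with a coding sequence over 5 kb 43.0%. With library size 5 members were higher in all 3, namely Bptf, Ep400, Trrap, Kmt2a and Ash1l. The share of all genes with this pattern was not computed for that scaling. With TMM, 12 members were higher in none (80.4% of all and 23.2% of long genes), among them the BAF core subunits Smarcc1, Smarcc2 and Smarcb1. Tet3, Srcap and Ino80 were lower in the pellet than in RNA-seq and higher in it than in fraction 5/6, which for Tet3 held in all 3 comparisons on leaving out any library. In standard FMR1 KO the enrichment call of Srcap held in 3 of 6 such cases and that of Ino80 in 0 of 6, none of these genes was called with library size, and the libraries of each overlapped. In the low nuclease preparation the call of Srcap held in 2 of 6 in each genotype. That of Ino80 held there in 6 of 6 in WT and in 3 of 6 in FMR1 KO. All 3 genes were called with library size in both genotypes of that preparation.

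Trrap had the highest enrichment in standard FMR1 KO and in low nuclease WT. Its levels in standard FMR1 KO were 418, 204 and 415 CPM in the pellets and 33.1, 34.3 and 54.2 CPM in fraction 5/6, a log2 enrichment of 3.38 ± 0.20 (adjusted p = 0.0013). In low nuclease WT it had 280, 286 and 276 CPM against 29.2, 51.4 and 44.0 (log2 2.88 ± 0.21, adjusted p = 0.0041), and in low nuclease FMR1 KO 280, 239 and 248 against 50.3, 58.1 and 58.1 (log2 2.40 ± 0.15, adjusted p = 0.0068). The pellets lay above fraction 5/6 without overlap in each case. In standard WT, fraction 5/6 held 30.3, 26.5 and 383 CPM, where the last is the library labelled replicate 3, at the level of the pellets. In low nuclease FMR1 KO the log2 enrichment of Setd1a, a SET1 family methyltransferase, was 2.48 ± 0.92 (adjusted p = 0.11), but it came from 1 pellet at 356 CPM, where the others had 46.1 and 32.7.

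Ep400, the ATPase of the TIP60 complex in which Trrap is the scaffold, had 177, 84.5 and 167 CPM in the standard FMR1 KO pellets and 27.0, 31.2 and 59.3 in fraction 5/6 (log2 enrichment 2.20 ± 0.21, adjusted p = 0.0027). Ash1l, which methylates lysine 36 of histone H3, had 192, 90.8 and 170 CPM against 28.1, 36.1 and 59.1 (log2 2.20 ± 0.20, adjusted p = 0.0025). All pellets of both genes lay above all libraries of fraction 5/6. In low nuclease WT and FMR1 KO their log2 enrichments were 1.95 and 1.74 for Ep400, and 1.80 and 1.89 for Ash1l, all past the test.

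Smarcb1 was the only member that was lower in the pellet. In low nuclease WT it had 158, 177 and 133 CPM in the pellets against 271, 270 and 266 in fraction 5/6 (log2 -0.67 ± 0.16, adjusted p = 0.033), and in low nuclease FMR1 KO 168, 154 and 149 against 290, 251 and 251 (log2 -0.56 ± 0.15, adjusted p = 0.047). In standard FMR1 KO it had 165, 121 and 187 against 195, 248 and 353 (log2 -0.43 ± 0.13, adjusted p = 0.08). Pellets lay below fraction 5/6 without overlap in all 3 comparisons, but in the low nuclease preparation the call was lost on leaving out any of 5 of the 6 libraries in WT, and likewise in FMR1 KO. Kmt2e showed a log2 enrichment of -0.03 ± 0.16 (adjusted p = 0.93), with 83.5, 46.5 and 71.7 CPM in the pellets and 70.0, 63.4 and 125 in fraction 5/6, which overlap. Chd5 had -1.09 ± 0.85 (adjusted p = 0.41), where 1 library of fraction 5/6 stood at 1222 CPM and the others at 175 and 204. Without that library, FMR1 KO fraction 5/6 replicate 1, its log2 enrichment was 0.73.

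Counting genes whose pellets all lay above fraction 5/6 in CPM, 10 members did so in standard FMR1 KO (5.23% of genes tested), and 29 in each genotype of the low nuclease preparation (17.8% and 11.4%). Only Smarcb1 lay below without overlap in these comparisons (22.8%, 29.6% and 38.8% of genes tested). In standard WT only Arid2 lay above without overlap and no member below (2.23% and 3.62% of genes tested), and without the library labelled WT fraction 5/6 replicate 3, 32 lay above and none below (21.9% and 6.76%).

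The members are coded by long mRNAs, and enrichment varied with coding length. The split by length was added after the values were known. The longest coding sequence of the members had a median of 6.89 kb, with 31 of 39 over 5 kb, and over all genes the median was 1.38 kb. Of the 31 long members, 77.4% were higher in the standard FMR1 KO pellet with a median log2 enrichment of 1.09. Of all 653 genes tested over 5 kb, 58.5% were higher, with a median of 1.18. Among the 8 shorter members 2 were higher with a median of 0.38, and among all shorter genes 6.53% with a median of -0.07. In the low nuclease preparation the share of long members that rose was 67.7% in WT and 61.3% in FMR1 KO, beside 59.3% and 52.8% of all long genes. The median of the long members thus stood near that of all long genes, above it in FMR1 KO (0.93 and 0.89) and below it in WT (0.85 and 0.93) of that preparation. Across the 39 members, coding length and log2 enrichment in standard FMR1 KO had a Spearman's rho of 0.76 and a Pearson's r of 0.66, and across all 13235 genes with a length the rho was 0.58. In low nuclease WT the rho was 0.65 across the members and 0.48 across all genes. In low nuclease FMR1 KO it was 0.49 and 0.60. The points of each comparison share the same 6 libraries. Log2 occupancy of the WT pellet had a rho of -0.01 with coding length across the members and of 0.37 across all genes. That of fraction 5/6 in FMR1 KO had -0.58 across the members and 0.16 across all genes, and in WT -0.32 and 0.26, or -0.63 and 0.16 without the library labelled WT fraction 5/6 replicate 3. Trrap, with 11.6 kb, and Smarcb1, with 1.16 kb, lie near the ends of both scales, whereas Kmt2e, with 5.60 kb, had a log2 enrichment of -0.03.

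**Figure D5:**
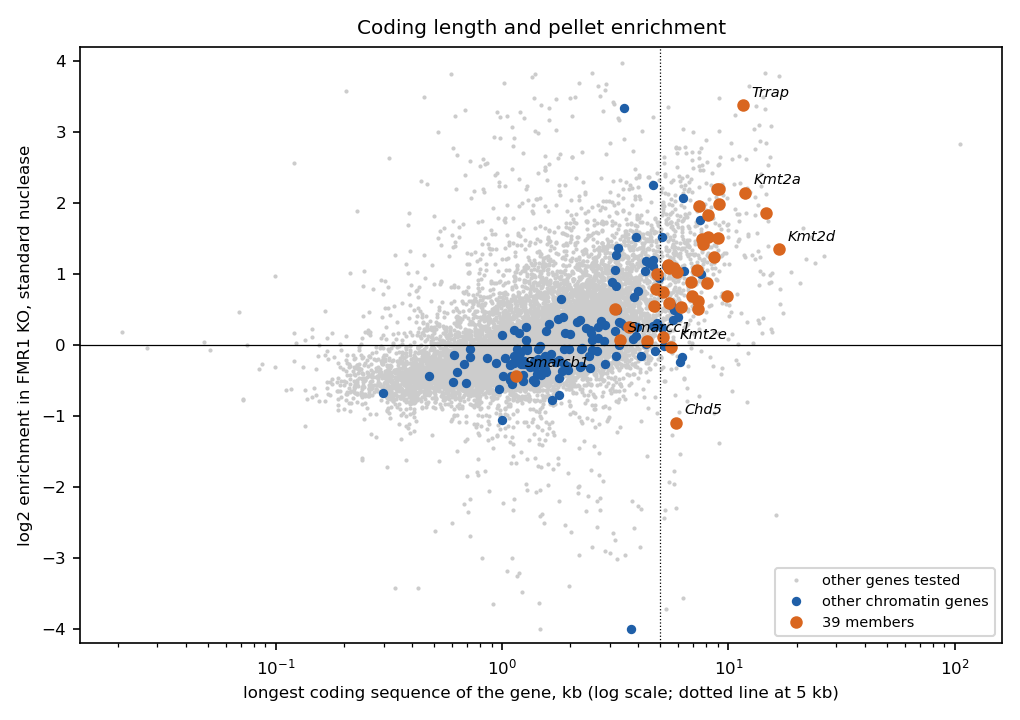
Log2 enrichment in standard FMR1 KO against the length of the longest coding sequence in kb on a log axis, for members, other chromatin genes and all other genes tested. The members lie along the rise of the other long genes, with Trrap above and Kmt2e below them, and 94 other genes fall outside the plotted range.

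The genotypes were compared in each material, the question being whether loss of FMRP moved these mRNAs. No member passed the test in any of the 7 comparisons, with edgeR or with DESeq2. Few genes did at all: 0.015% of those tested in the standard pellet, 0.0% in standard fraction 5/6, 0.0735% in RNA-seq, 0.0197% in the low nuclease pellet, 0.0445% in the low nuclease fraction 5/6, 0.0672% for occupancy and 0.0% for enrichment. In the standard pellet the median log2 difference of FMR1 KO from WT was -0.02, and 2 members had an unadjusted p under 0.05. These were Setd5, an orphan SET domain protein, with 48.8, 56.2 and 51.3 CPM in WT and 46.0, 29.3 and 49.4 in FMR1 KO (log2 -0.31 ± 0.09, adjusted p = 0.87), and Arid2, the DNA-binding subunit of the PBAF form of BAF, with 65.9, 65.1 and 64.2 against 59.1, 34.9 and 64.6 (log2 -0.29 ± 0.12, adjusted p = 0.87). The groups overlap for both genes, and their lowest library is FMR1 KO replicate 2, the lowest for 38 members. In the low nuclease pellet the log2 differences of Setd5 and Arid2 were -0.13 ± 0.07 and -0.11 ± 0.11, and there the libraries of both genes were lower in FMR1 KO without overlap in CPM.

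The largest negative difference, that of Chd5 at -1.85, came from the library at 1979 CPM and was 0.05 without it. The largest positive ones were 0.20 ± 0.12 for Chd2, with 50.2, 43.3 and 46.5 CPM in WT and 61.2, 38.6 and 59.5 in FMR1 KO, 0.19 ± 0.14 for Kmt2e, and 0.16 ± 0.15 for Setd1b, with 47.6, 41.3 and 45.9 against 61.7, 34.1 and 53.4. The libraries of these genes overlap between genotypes. No member was without overlap in the standard pellet (3.16% of genes higher, 2.43% lower). In the low nuclease pellet 7 members were lower without overlap (8.8%), namely Chd7, Arid2, Ino80, Kmt2a, Kmt2b, Setd5 and Tet3, and 1 was higher (2.0%). The higher one was Chd9, with 184, 159 and 133 CPM in WT and 336, 203 and 220 in FMR1 KO (log2 0.79 ± 0.25, unadjusted p = 0.02, adjusted p = 0.91). In the standard pellet Chd9 had a log2 difference of 0.15 ± 0.16.

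In whole-brain RNA-seq 34 of 39 members were above 0 (50.3% of all genes), with a median of 0.07 and none past the test (0 at an unadjusted p under 0.05). Without WT RNA replicate 1, the lowest of its group for 34 members, the median was -0.01. The RNA-seq pools of the genotypes also differ in Y-linked reads, as given above, and the part of this in the RNA-seq and occupancy differences was not tested. No member was without overlap there (2.26% of genes higher, 5.77% lower). In fraction 5/6 the median log2 difference was -0.44, with 36 of 39 below 0, beside 53.6% of all genes and 88.6% of the 641 with a coding sequence over 5 kb, whose median was -0.57. The members' median was 0.10 without the library labelled WT fraction 5/6 replicate 3, with 15 of 39 below 0. In the low nuclease fraction 5/6 it was -0.04. The difference between genotypes in occupancy had a median of -0.12, which was 0.00 without FMR1 KO pellet replicate 2 and -0.23 without replicate 1 of that group. That in enrichment had a median of 0.41, which was -0.12 without the library labelled WT fraction 5/6 replicate 3. No member was called in these comparisons.

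Between preparations, whose nuclease, temperature and MgCl2 differ together and cannot be told apart, 5 members were higher in the standard WT pellet and 4 lower (15.1% and 23.8% of genes tested). The higher ones were Trrap (log2 0.87 ± 0.14), Atrx (0.79 ± 0.17), Ash1l (0.58 ± 0.16), Smarcb1 (0.51 ± 0.16) and Ep400 (0.42 ± 0.12), and the lower ones Chd9 (-0.73 ± 0.16), Tet3 (-0.66 ± 0.10), Setd5 (-0.37 ± 0.08) and Srcap (-0.35 ± 0.11). In FMR1 KO, Trrap (0.90 ± 0.20) and Smarcb1 (0.51 ± 0.13) were higher, and Chd9 (-1.33 ± 0.27) and Setd5 (-0.50 ± 0.09) lower (7.34% and 9.35% of genes tested). Most of these calls depended on 1 library or on the setting. Trrap in WT was called on leaving out any of the 6 libraries, Tet3 in 5 of 6, Atrx in 4 and Chd9 in 3, and the others in WT and all of those in FMR1 KO in 1 or 2. With library size 1 member was higher and 20 lower in WT and 0 higher in FMR1 KO. The median of all genes then moved by -0.53 in WT and -0.51 in FMR1 KO. The replicate block left 3 higher in WT, and 0 higher and 1 lower in FMR1 KO.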

How the data were processed

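Per the methods, the authors trimmed reads with cutadapt 2.10, took out reads of ribosomal and non-coding RNA (Bowtie2 2.3.5), aligned to GRCm38 with STAR 2.7.8a, removed duplicates with Picard and SAMtools 1.19.2, and counted reads per gene with featureCounts 2.2.0. The deposited counts are whole numbers without normalization. The deposited peak heights are coverage signal, called by the authors in each library and not scaled between libraries. Their methods state a minimum peak height of 4 times the mean of the mRNA, which was not checked here. From the counts, 26 rows of other biotypes in GENCODE M21 were left out, genes were filtered with filterByExpr, normalized by TMM and tested with edgeR 4.0.16 (quasi-likelihood test, limma 3.58.1, R 4.3.3) with Benjamini-Hochberg adjustment over all genes tested and a threshold of 0.05. The test was checked on simulated data in which few genes changed, equally up and down. That check holds no shift between materials and so cannot decide between the scalings. Each comparison was fitted on its own groups, and differences between genotypes in occupancy and enrichment as interactions. Groups follow the sample labels. Genes with values in every library are the 3 highest and lowest in WT occupancy, FMR1 KO enrichment and the genotype difference in the pellet. Library values of Chd9, Setd1a and Crebbp are given outside this rule, chosen after they were seen. Peaks were read with Python 3.11.15, pandas 2.3.3 and numpy 2.4.6. Figures were drawn with matplotlib 3.10.9. Alternatives were DESeq2 1.42.0, library size, no filter, 1 fit for all standard groups, a replicate block, other peak settings and leaving out each library. The members, the 147 other chromatin genes, the rules and tests were chosen with earlier results of these data known. The length split, the Y-linked counts, the shares over all genes for patterns of several comparisons, the comparisons and peaks without 1 or both doubted libraries and the codons of the 6-pellet site were added after the values were seen.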

Additional observations from a re-analysis of the deposited data

How the results depend on the processing

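Among the 17 comparisons, scaling moved member counts of occupancy, enrichment and preparation. All genes moved as well, their median by -1.15 in WT occupancy, -1.10 in FMR1 KO occupancy and -0.30 in FMR1 KO enrichment. With library size without Cdk8 in place of TMM, WT occupancy had 4 members higher and 23 lower with a median log2 of -0.47, FMR1 KO occupancy 1 and 17 with -0.58, WT fraction 5/6 occupancy 0 and 20, and FMR1 KO fraction 5/6 occupancy 1 higher. FMR1 KO enrichment had 5 higher, the standard against the low nuclease pellet 1 higher and 20 lower in WT and 0 higher in FMR1 KO. With DESeq2, WT fraction 5/6 occupancy had 8 higher, FMR1 KO enrichment 1 lower (Smarcb1) and standard against low nuclease in WT 8 higher. In 1 fit of all standard groups, WT and FMR1 KO fraction 5/6 occupancy had 10 and 4 higher. Without a filter, low nuclease FMR1 KO enrichment had 0 lower and standard against low nuclease in FMR1 KO 1 higher. Replicate numbers share no source in the labels, and the deviations of same-numbered libraries correlated at -0.16 to 0.35 over genes, below 0.1 for at least 1 pair in each comparison. Over the 39 members alone they ran from -0.89 to 0.84, and every pair was above 0.1 in standard WT enrichment (0.51 to 0.76) and in FMR1 KO standard against low nuclease (0.68 to 0.84). The replicate block gave 20 members higher in FMR1 KO enrichment, 28 and 25 in low nuclease WT and FMR1 KO, 3 higher in standard against low nuclease WT, and 0 higher and 1 lower in FMR1 KO.

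Leaving out 1 library at a time gave 3 to 7 higher and 6 to 19 lower in WT fraction 5/6 occupancy, with a median of -0.62 to 0.26. It gave 0 to 27 higher in WT enrichment (median 0.36 to 1.06), 16 to 27 in FMR1 KO enrichment, 15 to 23 higher and 0 to 1 lower in low nuclease WT, and 8 to 21 higher and 0 to 1 lower in low nuclease FMR1 KO. For standard against low nuclease it gave 1 to 8 higher and 0 to 3 lower in WT, and 0 to 5 higher and 0 to 2 lower in FMR1 KO. The median genotype difference ran from -0.67 to 0.10 in fraction 5/6 and from -0.12 to 0.68 in enrichment, where it was 0.01 without the libraries labelled WT fraction 5/6 replicate 3 and FMR1 KO pellet replicate 2 together. The median member level in the WT pellet was 112.5 to 126.7 CPM.

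Over TMM effective library sizes the median member level was 208.4 CPM in the WT pellet, 204.8 in the FMR1 KO pellet, 73.2 in FMR1 KO fraction 5/6, 190.2 and 184.5 in the low nuclease WT and FMR1 KO pellets, 129.7 and 143.2 in WT and FMR1 KO RNA-seq and 199.6 in low nuclease FMR1 KO RNA-seq. Peaks matched within 3 nt gave 4 member sites in all 3 WT pellets and 5 in all 3 FMR1 KO pellets, with 3 of the WT sites in an FMR1 KO pellet. Within 12 nt these were 38, 38 and 37, and for the taller peaks of each library 3, 3 and 1. The cause of these changes was not tested. Members had as few as 48 counts in a library of fraction 5/6, which limits single calls there.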

Other observations

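The other 147 chromatin genes, listed for their function, mostly lacked the enrichment of the 39. In standard FMR1 KO, 20 of 145 tested were higher in the pellet than in fraction 5/6 and 2 lower, with a median log2 enrichment of -0.06 (9.09% and 2.35% of all genes tested). Histone demethylases made up 11 of the 20, out of 16 measured, with a median of 0.97. None of 21 BAF partner subunits, 11 NuRD partners, 17 Polycomb proteins or 9 DNA methylation proteins and readers was higher, and their medians were -0.18, -0.01, -0.28 and -0.01. Kdm5b, a demethylase of lysine 4 of histone H3, had a log2 enrichment of 2.25 ± 0.19 in standard FMR1 KO (quasi-likelihood test of edgeR, Benjamini-Hochberg adjusted p = 0.0020) and 2.01 ± 0.23 in low nuclease FMR1 KO (adjusted p = 0.012). Hcfc1, a scaffold of SET1 complexes, had 2.07 ± 0.18 in standard FMR1 KO (adjusted p = 0.0020). Of the other chromatin genes with a coding sequence over 5 kb, 7 of 14 were higher, with a median of 0.52, and of the 131 shorter ones 13 were.

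Levels that stood apart in 1 library recurred in a few members. Besides Chd5, Setd1a stood at 343 CPM in 1 low nuclease WT pellet and at 40.7 and 38.5 in the others, and Crebbp at 916 CPM in 1 library of low nuclease FMR1 KO fraction 5/6 and at 179 and 187 in the others. In these cases the highest library was 8.42 and 4.91 times the middle one. Without that library the log2 enrichment of Crebbp in low nuclease FMR1 KO went from -0.73 to 0.44.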
